A study of Mus musculus with 17 samples.

Results

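The genes described here are 10 transcription factors listed together for the identity of granulosa cells, the somatic cells that surround the oocyte: Nr5a1, Nr5a2, Gata4, Gata6, Foxo1, Foxo3, Foxl2, Wt1, Nr0b1 and Nr2f2. They were taken by symbol from the deposited count table, which held all 10 among its 25198 genes, and 7 of the 10 had enough counts to be tested. Smart-Seq2, which copies whole transcripts into cDNA, was used on RNA from antral follicles of CD1 mice 16 days old, grown for 8 days in the encapsulated in vitro follicle growth system (eIVFG), each sample holding triplicate follicles. The 6 Tyrphostin libraries came from follicles exposed for 4 h to hCG, which acts on the LH receptor to trigger ovulation, and to 10 µM Tyrphostin-AG1478, an inhibitor of the EGF receptor kinase, dissolved in DMSO. The labels call the other 11 libraries Control, and since the treatment text is the same for every sample, whether Control follicles received hCG or DMSO is not stated. Batch 1 held 6 Control and 3 Tyrphostin libraries, and batch 2 held 5 and 3. Library names divide the Control libraries further into 5 sets. Nothing in the labels says that libraries came from separate animals or cultures, and the p-values measure the spread between these libraries, which may in part be technical.

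Total counts ran from 1820545 to 8291024 per library, so that 3 counts, taken as the floor of detection, corresponded to 0.336 to 1.64 CPM (counts scaled to a common library total, after TMM). Mitochondrially encoded genes took 0.175% of the counts of Control 7. Their share was 1.74 to 2.83% in Control libraries but for that one, 1.55 to 2.50% in Tyrphostin libraries of batch 1 and 0.781 to 1.32% in those of batch 2. Without Control 7 the calls among the members over all libraries were as many, 4. The 10 markers of granulosa cells other than these factors summed to between 82157 and 125946 CPM in the 17 libraries. A few abundant genes make up most of this sum. Inha alone had a mean of 44568 CPM in Control and 43006 CPM in Tyrphostin libraries, and Fshr only 8.31 and 14.8 CPM. Across all genes tested with batch as a term, 1018 of 9603 (10.6%) passed the threshold of 0.05 on the adjusted p, 4.35% being higher in Tyrphostin libraries and 6.25% lower. Of those called, 418 were higher and 600 lower with TMM scaling, and 715 and 396 with total-count scaling.

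The members belong to a few families. NR5A1 (steroidogenic factor 1, SF-1) and NR5A2 (liver receptor homolog 1, LRH-1) are orphan nuclear receptors that bind the same DNA element as monomers and drive genes of steroid synthesis. GATA4 and GATA6 are zinc finger factors that cooperate with them, and FOXO1 and FOXO3 are forkhead factors that leave the nucleus when the AKT kinase phosphorylates them. FOXL2 keeps granulosa cells from taking a testicular fate, WT1 is a zinc finger factor of the early gonad, NR0B1 (DAX-1) represses NR5A1, and NR2F2 (COUP-TFII) is best known in theca and stromal cells.

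Of the 7 members tested, 4 were called higher in Tyrphostin libraries, where 4.35% of all genes were, and 0 lower, where 6.25% were. The 4 were Nr5a2, Gata4, Foxo1 and Foxo3. The 3 others tested, Nr5a1, Gata6 and Nr2f2, did not pass the threshold. Foxl2, Wt1 and Nr0b1 held too few counts to be tested. Within batch 1 the same 4 of 7 were called higher and 0 lower, where 6.73% of all genes tested were called, 2.94% higher and 3.79% lower. Within batch 2 only Nr5a2 was called, 1 of 7, where 0.621% of genes were called, 0.193% higher and 0.427% lower. Without Control 7, 2 members were called in batch 2, as were 221 genes in place of 61. In bulk samples such as whole follicles, fewer cells of a type and less RNA per cell cannot be told apart. The median log2 fold change of the 7 was 1.01, against 0.00 over all genes tested. A gene high in 1 group alone passes the filter on low counts through that group, so this count covers the 7 and not all 10.

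**Figure D1:**
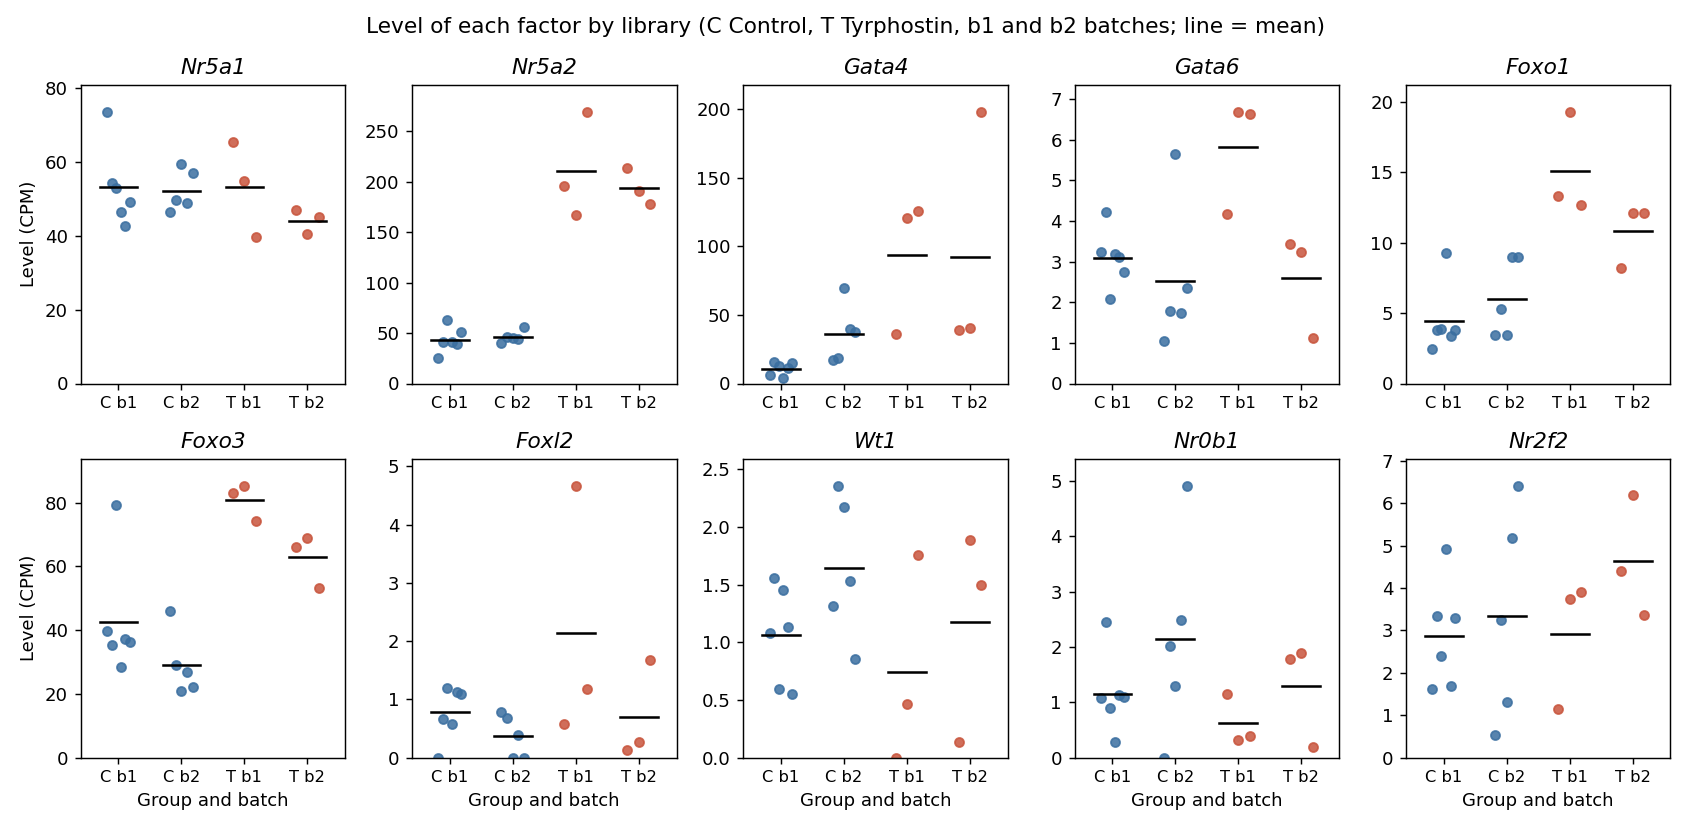
Level of each of the 10 factors in CPM (y axis, linear, from 0) in every library, by group and batch (x axis: C Control, T Tyrphostin, b1 and b2 the batches). Each point is a library and each line the mean. All 6 Tyrphostin libraries lie above every Control library for Nr5a2, 5 for Foxo1 and 0 for Nr5a1.

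The stretches before the starts of the 3 called genes that RefSeq's table (GRCm38.p6) covers are shown here, since these genes were higher together. Each runs 5′ to 3′ for 250 bases up to the start on the gene's strand. Capitals mark every match, on either strand, to GATAA (GATA factors), AAGGTCA (NR5A), GTAAACA (FOXO), TGACGTCA or its shorter form TGACG (CREB family), TGAGTCA or TGACTCA (AP-1), GGGCGG (GC box) and GCGTGGGCG (EGR). Stretches were taken from that table for 6 of the 10 members.
Nr5a2, upstream start, chr1:136960449-136960698, minus strand: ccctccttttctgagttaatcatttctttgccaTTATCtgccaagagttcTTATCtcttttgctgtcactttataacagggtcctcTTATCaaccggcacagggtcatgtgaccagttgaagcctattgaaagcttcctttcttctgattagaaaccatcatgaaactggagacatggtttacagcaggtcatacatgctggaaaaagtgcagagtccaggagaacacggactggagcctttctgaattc
Nr5a2, downstream start, chr1:136953631-136953880, minus strand: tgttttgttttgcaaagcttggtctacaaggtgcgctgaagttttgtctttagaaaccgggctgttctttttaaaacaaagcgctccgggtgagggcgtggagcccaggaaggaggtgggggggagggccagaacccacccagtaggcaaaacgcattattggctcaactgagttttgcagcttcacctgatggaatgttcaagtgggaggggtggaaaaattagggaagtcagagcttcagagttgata
Foxo1, chr3:52268087-52268336, plus strand: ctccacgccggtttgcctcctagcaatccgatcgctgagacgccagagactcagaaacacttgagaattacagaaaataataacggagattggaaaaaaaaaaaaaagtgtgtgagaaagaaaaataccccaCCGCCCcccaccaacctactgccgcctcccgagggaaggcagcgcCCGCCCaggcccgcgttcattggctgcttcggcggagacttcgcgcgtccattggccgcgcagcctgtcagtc
Foxo3, chr10:42276696-42276945, minus strand: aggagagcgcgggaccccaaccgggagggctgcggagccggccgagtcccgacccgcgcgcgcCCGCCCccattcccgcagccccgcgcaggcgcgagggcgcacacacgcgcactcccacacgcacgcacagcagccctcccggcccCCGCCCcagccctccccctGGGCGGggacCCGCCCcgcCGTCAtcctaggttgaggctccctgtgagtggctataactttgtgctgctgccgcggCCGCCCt

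The upstream Nr5a2 stretch held 3 matches to GATAA, read there as TTATC, at 217, 200 and 164 bases before the start. Of the 32851 such stretches in RefSeq's set, 22.6% held at least 1 match and 0.712% held 3 or more. Its downstream start had no match to any of these motifs. The Foxo3 stretch, at 76.4% G and C, held 5 GC boxes and a TGACG, and that of Foxo1, at 56%, held 2 GC boxes. GC boxes were present in 32.7% of all stretches and TGACG in 17.8%. None of the 4 stretches held AAGGTCA or GTAAACA, which 4.08% and 3.17% of all stretches held. These matches describe letters and say nothing of binding.

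Nr5a2 lies on chromosome 1 (136842571 to 136960448, minus strand, GRCm38, GENCODE M21) and shares no exonic base with another gene of that annotation. Its level ran from 25.1 to 62.5 CPM with a median of 43.9 in the 11 Control libraries, and from 167 to 269 CPM with a median of 193 in the 6 Tyrphostin libraries. The groups did not overlap: the lowest Tyrphostin library, Tyrphostin 2, was well above the highest Control library, Control 3. Over the genes tested, only 0.51% had every Tyrphostin library above every Control library. The log2 fold change was 2.18 ± 0.16 (SE; adjusted p = 8.38e-09, edgeR), a 4.52-fold rise, and only 2 of the 9603 genes had a lower p. Within batch 1 it was 2.29 ± 0.25 (SE; adjusted p = 2.31e-05, edgeR) and within batch 2 2.07 ± 0.21 (SE; adjusted p = 0.00133, edgeR). The interaction of treatment and batch was -0.21 ± 0.34 (SE; adjusted p = 0.9997, edgeR).

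The paralog Nr5a1, which is the receptor best known from steroid-producing cells, did not pass the threshold. It ran from 42.6 to 73.6 CPM with a median of 49.8 in Control and from 39.6 to 65.4 CPM with a median of 46 in Tyrphostin libraries, so that the groups overlapped over most of their range. Its fitted log2 change was -0.11 ± 0.15 (SE; adjusted p = 0.704, edgeR), with a 95% interval of -0.40 to 0.17 from that SE. Total-count scaling, which moved the median of all genes by 0.15, gave 0.02 and so turned its sign.

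Since a ratio of 2 genes in the same library does not depend on the scaling of libraries, the counts of Nr5a2 were divided by those of Nr5a1, with 0.5 added to both. In Control libraries the ratio ran from 0.342 to 1.18 with a median of 0.898, and in Tyrphostin libraries from 2.99 to 6.78 with a median of 4.23. Nr5a1 had the more reads in 9 of the 11 Control libraries, all but Control 3 and 6, and Nr5a2 had the more reads in all 6 Tyrphostin libraries. The mean difference within batches on the log2 scale was 2.31 (two-sided exact permutation within batches, p = 0.000213, adjusted p = 0.000638 over 3 ratios), with 2.30 in batch 1 and 2.31 in batch 2. This p is the smallest that the 4704 arrangements can give. The arrangements treat each library as a separate unit, and the ratios were not tested with Control libraries joined by set.

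**Figure D2:**
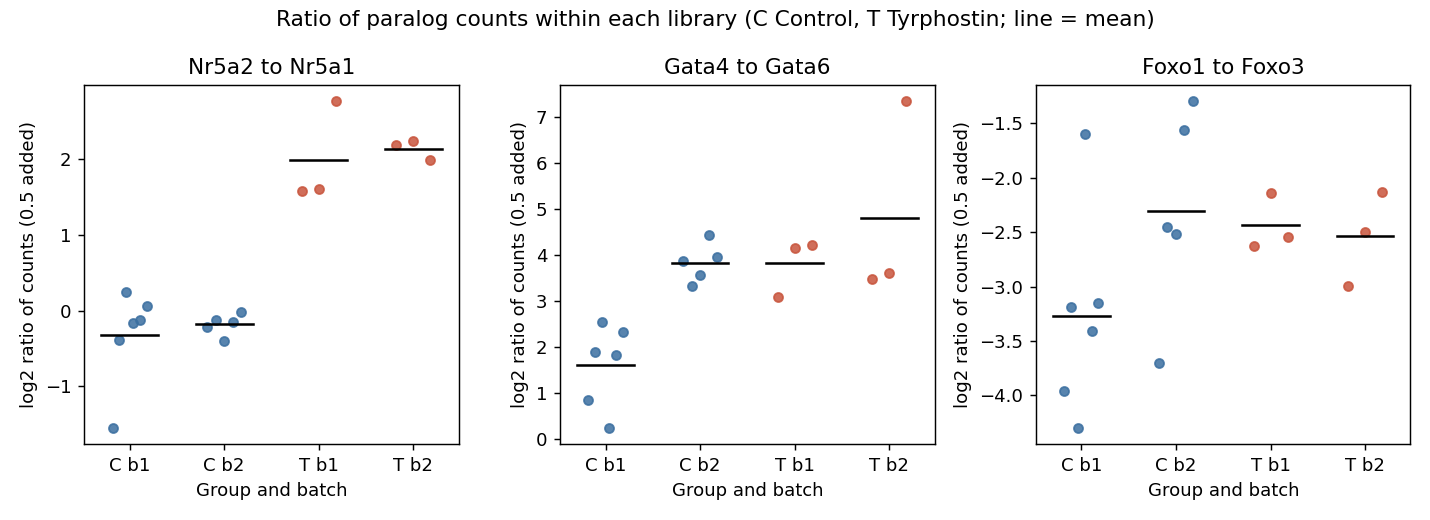
Log2 ratio of the counts of paralog genes within each library, with 0.5 added to each count (y axis), by group and batch (x axis: C Control, T Tyrphostin, b1 and b2 the batches); points are libraries and lines means. For Nr5a2 to Nr5a1 the 6 Tyrphostin libraries lie above all 11 Control libraries, for Gata4 to Gata6 only 1 does, and for Foxo1 to Foxo3 0 do.

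Gata4 had a large fitted change over the 17 libraries and the widest SE of the 7 factors tested. The gene lies on chromosome 14 (63198922 to 63271692, minus strand, GRCm38). It ran from 3.77 to 69.5 CPM with a median of 16 in Control and from 35.9 to 198 CPM with a median of 80.6 in Tyrphostin libraries. Only 3 of the 6 Tyrphostin libraries, namely Tyrphostin 2, 3 and 6, were above every Control library. Over the 17 libraries the log2 fold change was 2.32 ± 0.48 (SE; adjusted p = 0.00461, edgeR). With the Control libraries summed by set, which leaves 5 Control samples, it was 2.01 and no longer passed (adjusted p = 0.146, edgeR).

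Control libraries already differed in Gata4 between batches. In batch 1 they lay between 3.77 and 16 CPM, and in batch 2 between 17.1 and 69.5 CPM, with no overlap. The share of all genes so separated between Control batches was not counted. The log2 difference was 1.76 ± 0.40 (SE; adjusted p = 0.0123, edgeR), in a comparison in which 11% of 9128 genes passed and 5.5% were higher in batch 2. By set, the levels within batch 2 were 17.1 and 18.5 CPM in set 4, 37.8 and 39.5 CPM in set 6 and 69.5 CPM in the single library of set 5, Control 9. Among the members tested, Gata4 was the only one called between batches.

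Against these unequal backgrounds the Tyrphostin libraries stood differently in the batches. In batch 1 they held 35.9, 121 and 126 CPM, each above every Control library of the batch, with a log2 fold change of 3.14 ± 0.42 (SE; adjusted p = 0.000502, edgeR). How many genes were so separated within a batch was not counted. In batch 2 they held 38.7, 40.7 and 198 CPM, and Tyrphostin 4 and 5 lay within the Control range. The log2 fold change there was 1.36 ± 0.60 (SE; adjusted p = 0.457, edgeR), and 0.14 without Tyrphostin 6. The interaction was -1.77 ± 0.86 (SE; adjusted p = 0.9997, edgeR, unadjusted p = 0.0572), and 0% of genes passed in that test. Without the filter on low counts the Gata4 interaction did pass (adjusted p = 0.00389, edgeR).

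Some markers of other cell types were also called between batches in Control libraries, beside 5.5% of all genes higher in batch 2 and 5.5% lower. The 12 theca and stroma markers summed to between 276 and 777 CPM in Control libraries of batch 1 and between 450 and 2172 CPM in batch 2, with 2 higher and 1 lower of 9 tested. The 12 oocyte markers summed to between 22.4 and 72.8 CPM and between 33.4 and 181 CPM, with 1 of 8 tested higher. Control 9, the Control library highest in Gata4, held the lowest sums of both lists within batch 2, at 450 and 33.4 CPM. Tyrphostin 6, the highest of all in Gata4, held 1097 and 278 CPM, the latter the highest oocyte sum of the 17 libraries. Their part in the Gata4 levels was not tested.

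Gata6 was scarce, with 4 to 19 counts in Control and 6 to 43 counts in Tyrphostin libraries. It ran from 1.05 to 5.65 CPM with a median of 2.74 in Control and from 1.12 to 6.68 CPM with a median of 3.80 in Tyrphostin libraries. Of the 6 Tyrphostin libraries, 2 were above every Control library and the others lay among them. The log2 fold change was 0.57 ± 0.32 (SE; adjusted p = 0.293, edgeR), with an interval of -0.06 to 1.19. The ratio of Gata4 to Gata6 counts had a median of 5.8 in Control and of 14.7 in Tyrphostin libraries. On the log2 scale the mean difference within batches was 1.6 (two-sided exact permutation within batches, p = 0.00808, adjusted p = 0.0121), with 2.21 in batch 1 and 0.98 in batch 2. Without Tyrphostin 6 it was 0.96 and did not pass (exact permutation test, adjusted p = 0.0808).

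The FOXO genes were both higher in Tyrphostin libraries. Foxo1 (chromosome 3, 52268336 to 52353221, plus strand, GRCm38) ran from 2.43 to 9.28 CPM with a median of 3.83 in Control and from 8.23 to 19.3 CPM with a median of 12.4 in Tyrphostin libraries. All Tyrphostin libraries but Tyrphostin 4 were above every Control library. Control 4, 10 and 11 lay between 8.97 and 9.28 CPM and the other 8 at or below 5.27 CPM. With batch as a term, the log2 fold change was 1.30 ± 0.27 (SE; adjusted p = 0.00266, edgeR), a 2.47-fold rise. It was 1.77 ± 0.35 in batch 1 (SE; adjusted p = 0.00404, edgeR) and 0.81 ± 0.37 in batch 2 (SE; adjusted p = 0.472, edgeR), with an interaction of -0.96 ± 0.53 (SE; adjusted p = 0.9997, edgeR, unadjusted p = 0.0858). Of its exonic bases 7.78% lie opposite another annotated gene, and whether counting used strand is not given in the sources used here.

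Foxo3 (chromosome 10, 42181841 to 42276755, minus strand, GRCm38) was the more abundant of the pair. It ran from 20.8 to 79.2 CPM with a median of 35.4 in Control and from 53.3 to 85.2 CPM with a median of 71.7 in Tyrphostin libraries. Control 3, at 79.2 CPM, was the single Control library inside the Tyrphostin range; the next highest, Control 7, had 45.9 CPM. Its log2 fold change was 1.01 ± 0.19 (SE; adjusted p = 0.00118, edgeR), a 2.02-fold rise. Both batches gave values close to this, 0.93 ± 0.27 in batch 1 (SE; adjusted p = 0.0416, edgeR) and 1.12 ± 0.26 in batch 2 (SE; adjusted p = 0.0853, edgeR). In batch 2 the groups did not overlap, and the share of all genes so separated within a batch was not counted. The call in batch 1 was kept on omission of Control 3 and lost on omission of any of the 8 other libraries of that batch (adjusted p = 0.125, edgeR, without Tyrphostin 2). The ratio of Foxo1 to Foxo3 had a median of 0.113 in Control and 0.175 in Tyrphostin libraries, and the log2 difference of 0.30 did not exceed the spread (two-sided exact permutation within batches, p = 0.487, adjusted p = 0.487).

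**Figure D3:**
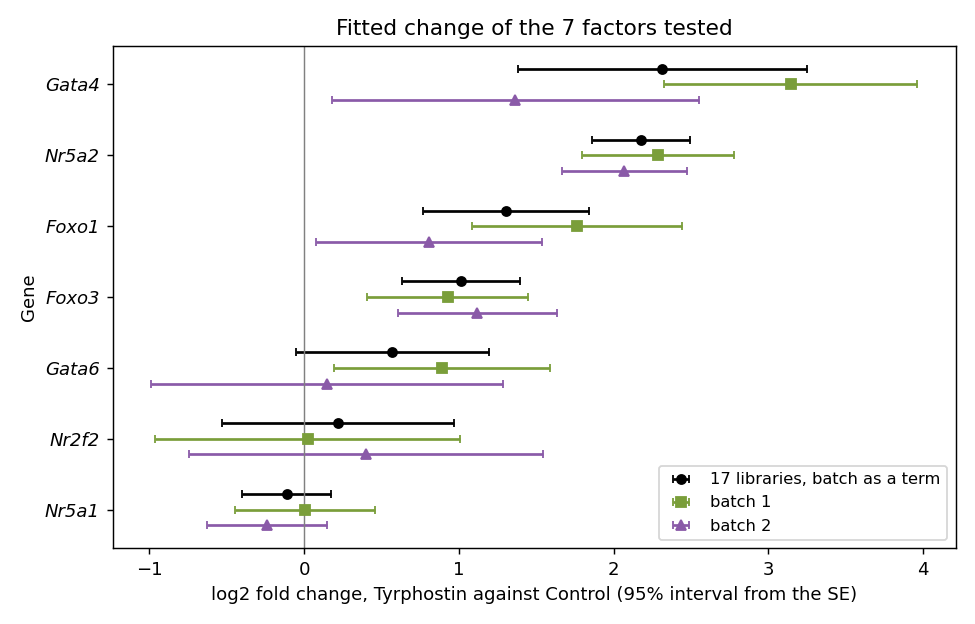
Log2 fold change between Tyrphostin and Control libraries (x axis) of the 7 factors tested (y axis), over 17 libraries with batch as a term (circles) and within batch 1 (squares) and batch 2 (triangles), with 95% intervals from the SE. The intervals use the normal distribution and are narrow for so few libraries. Nr5a2 is near 2 in all fits, Gata4 and Foxo1 are further right in batch 1 than in batch 2, and the 17-library intervals of Gata6, Nr2f2 and Nr5a1 include 0.

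Foxl2, which defines the granulosa lineage, was close to absent from the counts. It had 0 to 6 counts in each Control library, 26 in all, with 0 in Control 1, 9 and 11. Tyrphostin libraries had 1 to 9 counts except Tyrphostin 2, which had 30. Of its single exon of 3256 bases, 12 bases overlap the opposite-strand gene Foxl2os in GENCODE M21. Foxl2os held 147 counts over the Control libraries and 106 over the Tyrphostin libraries. With no filter, the log2 fold change of Foxl2 was 1.22 ± 0.61 (SE; adjusted p = 0.301, edgeR), with an interval of 0.04 to 2.41.

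Wt1 was at a like level, with 1 to 21 counts in Control and 0 to 9 counts in Tyrphostin libraries. With no filter its log2 fold change was -0.56 ± 0.55 (SE; adjusted p = 0.633, edgeR). The 8 surface epithelium markers, cells that express Wt1 too, summed to at most 20.9 CPM in any library and Upk1b had 0 counts in all of them. Nr0b1 had 0 to 23 counts in Control and 1 to 13 counts in Tyrphostin libraries, and its unfiltered log2 fold change was -0.80 ± 0.53 (SE; adjusted p = 0.469, edgeR). For Foxl2, Wt1 and Nr0b1 most libraries had 5 counts or fewer.

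Nr2f2 had 2 to 30 counts in Control and 8 to 32 counts in Tyrphostin libraries, and passed the filter. It ran from 0.525 to 6.4 CPM with a median of 3.25 in Control and from 1.15 to 6.2 CPM with a median of 3.82 in Tyrphostin libraries, so that the ranges overlapped almost entirely. The log2 fold change was 0.22 ± 0.38 (SE; adjusted p = 0.794, edgeR), with an interval of -0.53 to 0.97 that leaves room for changes in both directions. Across the 11 Control libraries, Nr2f2 and Foxo1 had the highest correlation of log2 CPM of any pair of tested members, with Pearson r = 0.80. Controls 4, 10 and 11 were highest in both, all points share their library's depth and set, and this r was chosen as the highest of 21 pairs.

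Levels were set side by side between genes only per length, as CPM per kilobase of exonic sequence. In Control libraries Nr5a1 came first at 12.4 ± 2.00 (SD, n = 11) CPM per kilobase, before Nr5a2 at 7.59 ± 1.66, Gata4 at 5.75 ± 4.94 and Foxo3 at 4.81 ± 2.12 (SD, n = 11). The place of Gata4 differed between batches: it came after Foxo3 in batch 1, at 2.76 ± 1.26 (SD, n = 6) against 5.64 ± 2.42 (SD, n = 6), and before Nr5a2 in batch 2, at 9.34 ± 5.44 (SD, n = 5) against 7.84 ± 1.04 (SD, n = 5) CPM per kilobase. The other 6 genes lay at or below 0.888, the mean of Nr0b1, with Foxl2 the lowest at 0.182 ± 0.139 (SD, n = 11). Neighbours among these first 4 overlapped in their ranges, while the lowest Foxo3 library, at 2.75, was just above the highest Nr0b1 library, at 2.72 CPM per kilobase. In Tyrphostin libraries Nr5a2 came first at 34.3 ± 6.16 (SD, n = 6) CPM per kilobase and Gata4 next at 23.9 ± 16.9, with overlapping ranges, and Nr5a1 followed at 11.5 ± 2.32 (SD, n = 6). The lowest Nr5a2 library, at 28.3, was above the highest Nr5a1 library, at 15.4 CPM per kilobase.

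Relatives of the members in the same families were scarce. Of 10 such genes only Nr2f6 was tested, with a log2 fold change of -0.18 ± 0.30 (SE; adjusted p = 0.773, edgeR). Nr0b2 (SHP), a repressor of NR5A2 and related to Nr0b1, had 48 counts over the 11 Control libraries and 48 over the 6 Tyrphostin libraries. Foxo4 had 26 and 28 counts in all, and Gata2 15 and 9.

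For each of the 4 factors called, the 2 genes most alike were sought by Pearson r of log2 CPM over the 17 libraries, as a description. Nr5a2 was most like St3gal5 (r = 0.95), which makes the ganglioside GM3, and the kinesin gene Kif26b (r = 0.93). Both were called higher in Tyrphostin libraries. On the log2 scale St3gal5 changed by 2.68 ± 0.18 (SE, adjusted p = 8.68e-10, edgeR) and Kif26b by 1.65 ± 0.20 (SE, adjusted p = 8.56e-06, edgeR). Gata4 was most like the adiponectin receptor gene Adipor1 (r = 0.92) and Mlec (r = 0.89), neither of which passed the threshold. Foxo1 was most like Zfp386 (r = 0.84) and Clcc1 (r = 0.83). Foxo3 was most like Scpep1 and Scpep1os (r = 0.86 for both), whose reads cannot be told apart if counting ignored strand. Clcc1 (adjusted p = 0.0447, edgeR) and Scpep1os (adjusted p = 0.0318, edgeR) were called higher, and Zfp386 and Scpep1 did not pass. All points share their library's depth, batch and treatment.

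Of 18 cofactors and modifying kinases, 16 were tested, 1 was higher and 1 lower, beside 10.6% of all genes called, and their median log2 fold change was -0.04 against 0.00 over all genes. Nrip1 (RIP140), a nuclear receptor corepressor that ovulation requires, was higher, at 21.6 ± 3.75 (SD, n = 11) CPM in Control and 36.6 ± 8.29 (SD, n = 6) CPM in Tyrphostin libraries. All Tyrphostin libraries but 1 were above every Control library, and the log2 fold change was 0.74 ± 0.15 (SE; adjusted p = 0.00232, edgeR). Without Control 7 to 11, the Control libraries of batch 2, only batch 1 informs the change. It was then 0.72 and did not pass (adjusted p = 0.0664, edgeR). Cited2, a transcriptional coregulator, was lower by -0.84 ± 0.22 on the log2 scale (SE; adjusted p = 0.0143, edgeR), a call lost without Tyrphostin 1 (adjusted p = 0.0523, edgeR) and without the batch term (adjusted p = 0.251, edgeR). Among Control libraries it was also called lower in batch 2, as were 5.5% of all genes. The kinase genes Sgk1 and Akt2, whose products phosphorylate FOXO proteins, did not pass over the 17 libraries. Within batch 1, Sgk1 was the 1 cofactor of 16 called, and higher, as were 2.94% of all genes. It ran there from 254 to 857 CPM in Control and from 801 to 1628 CPM in Tyrphostin libraries. In batch 2 it ran from 138 to 293 CPM and from 87.1 to 226 CPM, and 0 of 17 cofactors were called. Among Control libraries Sgk1 too was called lower in batch 2.

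Of 15 other factors and signals of gonadal somatic cells, 6 were tested and 1 was called, beside 10.6% of all genes. The 1 called was lower: Runx1, a transcription factor induced at ovulation. It had 372 ± 146 (SD, n = 11) CPM in Control and 128 ± 69.0 (SD, n = 6) CPM in Tyrphostin libraries, with 5 of 6 below every Control library. Its log2 fold change was -1.54 ± 0.25 (SE; adjusted p = 0.000228, edgeR). The estrogen receptor gene Esr2 did not pass, with a fitted log2 change of 0.71 ± 0.29 (SE; adjusted p = 0.128, edgeR).

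Most genes of the testis pathway, which FOXL2 is known to hold down, were at or near the floor. Of 10 only 2 were tested and 0 were called, beside 10.6% of all genes. The most abundant, the growth factor gene Gdnf, was at 13.3 ± 6.52 (SD, n = 11) CPM in Control and 16.5 ± 4.72 (SD, n = 6) CPM in Tyrphostin libraries. Sox9, the gene that sets Sertoli cell fate, had 0 to 24 counts in Control and 5 to 8 counts in Tyrphostin libraries. Its level reached 4.45 CPM in Control and 1.62 CPM in Tyrphostin libraries.

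Steroidogenic and follicular genes, listed here as targets of NR5A, GATA4, GATA6 and FOXL2, were called in both directions. Whether these factors acted on them in these follicles was not tested. Of 18 genes 17 were tested, of which 7 were higher and 3 lower, beside 4.35% and 6.25% of all genes. Their median log2 fold change was 0.49 against 0.00 over all genes. It was 0.64 within batch 1 and -0.03 within batch 2, against 0.02 and -0.01 over all genes. Without the batch term, 5 were higher and 1 lower. Within batch 1, 5 of 16 were higher and 1 lower, and within batch 2, 2 of 17 were higher, Cyp19a1 and Inhbb, and 0 lower. Over all genes, 6.73% were called within batch 1 and 0.621% within batch 2. Prlr, the prolactin receptor gene, was at 110 ± 66.4 (SD, n = 11) CPM in Control and 325 ± 73.6 (SD, n = 6) CPM in Tyrphostin libraries, with 5 of 6 above every Control library. Its log2 fold change was 1.73 ± 0.19 (SE; adjusted p = 3.66e-06, edgeR). Its Control level ran from 48.7 to 69.9 CPM in batch 1 and from 122 to 231 CPM in batch 2. Among Control libraries, Prlr, Cyp19a1, Cyp11a1 and Akr1c18 were called higher in batch 2 and Sult1e1 lower, beside 5.5% of all genes in each direction.

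The other genes called higher included the gonadotropin receptors and enzymes of estrogen synthesis. Lhcgr, the LH receptor gene, had a log2 fold change of 1.02 ± 0.24 (SE; adjusted p = 0.00765, edgeR), which missed the threshold without the batch term (adjusted p = 0.0596, edgeR). Fshr, the FSH receptor gene, had 0.83 ± 0.25 (SE; adjusted p = 0.0344, edgeR) and stayed called on 11 of 17 omissions of a library (adjusted p = 0.187, edgeR, without Tyrphostin 1). Aromatase (Cyp19a1) had 2.35 ± 0.22 (SE; adjusted p = 2.84e-07, edgeR) and Hsd3b1 0.74 ± 0.18 (SE; adjusted p = 0.00821, edgeR). Without Control 7 to 11, where only batch 1 informs the change, the Hsd3b1 call was lost (adjusted p = 0.105, edgeR). Hsd17b1 and Inhbb were the remaining genes called higher.

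Those called lower serve cholesterol import and steroid inactivation. Star, which brings cholesterol into mitochondria, was at 11388 ± 3795 (SD, n = 11) CPM in Control and 5815 ± 2479 (SD, n = 6) CPM in Tyrphostin libraries, and lower by -0.99 ± 0.26 on the log2 scale (SE; adjusted p = 0.0143, edgeR). Its call too was lost without Control 7 to 11, where only batch 1 informs the change (adjusted p = 0.0791, edgeR). The estrogen sulfotransferase gene Sult1e1 was at 8803 ± 6609 (SD, n = 11) CPM and 1744 ± 1405 (SD, n = 6) CPM, and lower by -2.42 ± 0.43 on the log2 scale (SE; adjusted p = 0.000927, edgeR; 0.0591 without the batch term). Akr1c18, which inactivates progesterone, was lower by -2.27 ± 0.69 on the log2 scale (SE; adjusted p = 0.0421, edgeR) but was called on only 7 of 17 such omissions. Its counts differed between batches: 0 to 10 in Control libraries of batch 1 and 26 to 241 in those of batch 2 (3.55 ± 0.51 on the log2 scale, SE; adjusted p = 0.000468, edgeR). Cyp11a1, the side-chain cleavage enzyme and a classic NR5A target, had 0.05 ± 0.37 (SE; adjusted p = 0.959, edgeR), and Inha, Inhba and Sfrp4 also did not pass.

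**Figure D4:**
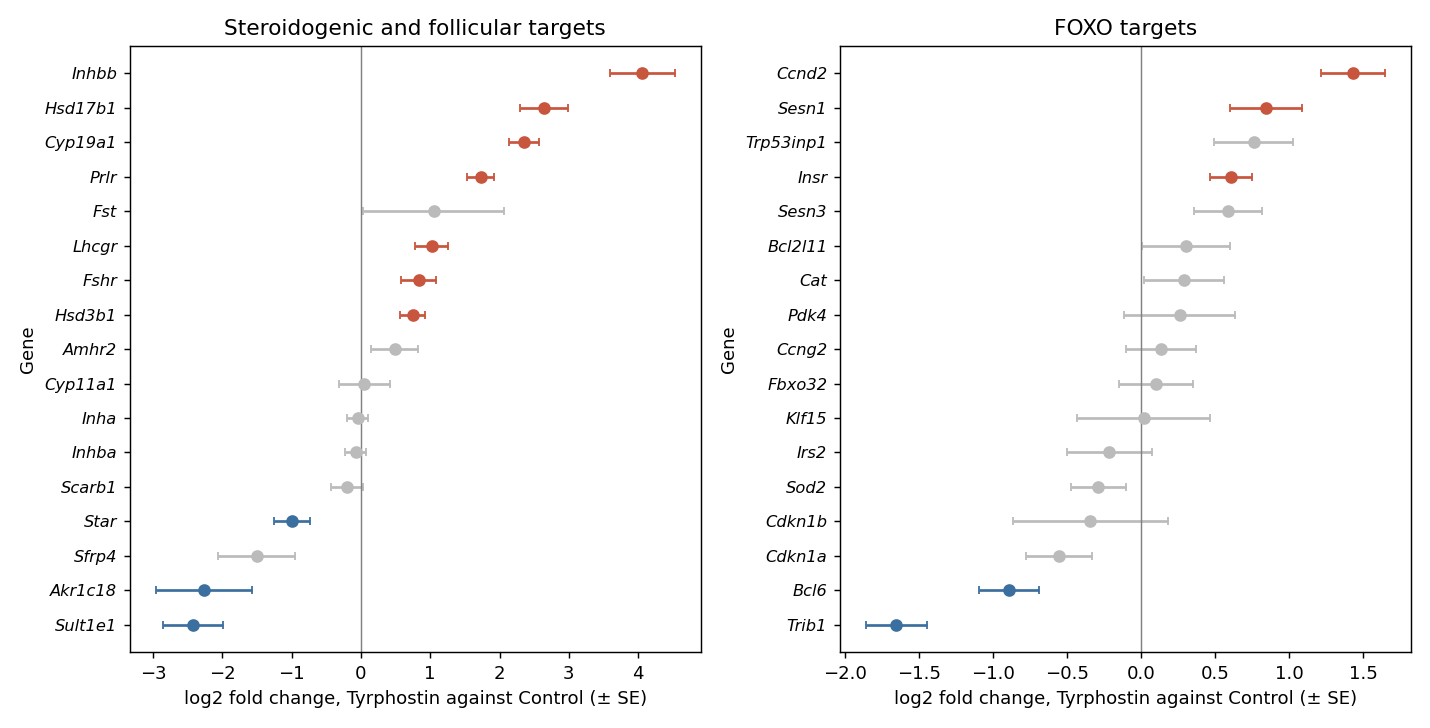
Log2 fold change between Tyrphostin and Control libraries with its SE (x axis) of each gene tested (y axis) among genes listed as targets of NR5A, GATA and FOXL2 (left) and of FOXO factors (right). Red genes were called higher, 7 and 3, blue ones lower, 3 and 2, and grey ones did not pass.

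Targets of FOXO factors were likewise called in both directions. Of 20 genes 17 were tested, 3 were higher and 2 lower, beside 4.35% and 6.25% of all genes. Their median log2 fold change was 0.13 against 0.00 over all genes. It was 0.31 within batch 1 and -0.03 within batch 2, against 0.02 and -0.01 over all genes. Within batch 1, 1 was higher and 1 lower of 16, and within batch 2, 0 of 17 were called. The shares called over all genes were 6.73% and 0.621%. Ccnd2 (cyclin D2) had a log2 fold change of 1.43 ± 0.21 (SE; adjusted p = 8.71e-05, edgeR), Insr (insulin receptor) 0.61 ± 0.14 (SE; adjusted p = 0.00628, edgeR) and Sesn1 0.84 ± 0.24 (SE; adjusted p = 0.0254, edgeR). FOXO1 is known to repress Ccnd2 and to activate Insr and Sesn1. None of these 3 passed without the batch term. Insr did not pass without Control 7 to 11, where only batch 1 informs the change (adjusted p = 0.0947, edgeR). Sesn1 was called on 14 of 17 omissions of a library.

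The FOXO targets called lower were Trib1 and Bcl6. Trib1, a pseudokinase gene, was at 27.3 ± 9.59 (SD, n = 11) CPM in Control and 8.22 ± 2.65 (SD, n = 6) CPM in Tyrphostin libraries, all 6 below every Control library, as held for 1% of all genes tested. Its log2 fold change was -1.65 ± 0.21 (SE; adjusted p = 1.17e-05, edgeR). Among Control libraries, 2 FOXO targets were called higher in batch 2, Ccnd2 being 1 of them, and 2 lower, Trib1 and Insr. Of all genes, 5.5% were called in each direction there. Bcl6, a transcriptional repressor, had -0.89 ± 0.20 (SE; adjusted p = 0.00549, edgeR). It did not pass without Control 7 to 11, where only batch 1 informs the change (adjusted p = 0.102, edgeR). The most abundant of the list, the cell cycle inhibitor gene Cdkn1a, did not pass (-0.55 ± 0.22, SE; adjusted p = 0.124, edgeR).

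Markers of other cell types were compared in the same fit. Of the theca and stroma markers 0 of 10 tested were called, of the oocyte markers 0 of 8, of the endothelial and immune markers 0 of 3 and of the surface epithelium markers 0 of 1. Of all genes, 10.6% were called. The theca and stroma sums ran from 276 to 2172 CPM in Control and from 282 to 3097 CPM in Tyrphostin libraries, and the endothelial and immune sums from 39.4 to 464 CPM and from 24.2 to 850 CPM. Tyrphostin 5 was the highest in both. The theca and stroma markers had opposite signs in the batches. Within batch 1, 9 of 10 tested had a negative log2 fold change (median -0.89). The collagen genes Col1a1 and Col1a2 were called lower, as were 3.79% of all genes. Within batch 2, 10 of 10 had a positive one (median 0.49) and 0 were called, and in the interaction 9 of 10 were positive (median 1.5) and 0 were called. Their part in the members' values was not tested. Of the granulosa markers 3 of 9 tested were called higher and 0 lower, beside 4.35% and 6.25% of all genes. The 3 were Cyp19a1, Fshr and Hsd17b1, which are also in the list of steroidogenic and follicular genes. Among the granulosa markers, Amh, which smaller growing follicles express, had 1 count over all Control libraries and 9 over all Tyrphostin libraries.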

How the data were processed

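Whole-number counts per gene symbol were deposited by the authors as a single table of 25198 genes and 17 libraries, with reads aligned and counted by STAR and HTSeq on GRCm38, per the submitters' processing notes. The annotation and the strand setting are not given in the sources used here. Of the genes, 3576 held no count. Among libraries sharing group and batch, all 31 pairs had a chi-square over genes of 11.8 to 84.1 times its degrees of freedom, more than sampling noise gives, and none was treated as a copy.

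Tests used edgeR 4.0.16 (R 4.3.3), with TMM scaling, filterByExpr by treatment (minimum count 10), robust quasi-likelihood fits over all genes, Benjamini-Hochberg adjustment and a threshold of 0.05. Batch was a term over the 17 libraries; fits within batches, the interaction and the batch difference among Control libraries were added. SE was the log2 fold change divided by the square root of F. Ratios of paralog counts, with 0.5 added, were tested by exact permutation within batches. Positions and exonic lengths came from GENCODE M21, promoter stretches from RefSeq. The code was tested on simulated counts.

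The 10 members and the other gene lists were chosen with earlier results of these data known. All members were named, and of each list every gene called plus up to 4 others by highest mean CPM. For each member called, the 2 genes of highest Pearson r with it (average log2 CPM, prior count 2, of at least 3) were named too. Nr0b2, Foxo4 and Gata2 are named under this rule. Alternatives were total-count, upper-quartile and RLE scaling, other filters, DESeq2 1.42.0, limma-voom (limma 3.58.1), no batch term, Control libraries summed by set, a replicate block on 12 libraries, those 12 with no block and omission of each library.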

Additional observations from a re-analysis of the deposited data

Results flagged for a closer look

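Within groups of 5 or 6 libraries (Control of batch 1, Control of batch 2, and Tyrphostin of both batches), outlying libraries were sought. A library whose gap to its neighbour took up most of the group's range was singled out. For values that follow a normal distribution, chance gives about 1 in 20 groups. Of 39 searched, 6 were singled out, where that rate would give 1.95. Whether CPM of scarce genes follow that distribution was not checked, so the rate is only a rough guide. Foxl2 in Tyrphostin 2 was at 4.66 CPM, against 0.137 to 1.68 CPM in the other Tyrphostin libraries. Gata6 in Control 9 was at 5.65 CPM, where the rest of that group in batch 2 had 1.05 to 2.35 CPM. In batch 1, Foxo1 in Control 4 was at 9.28 CPM, against 2.43 to 3.89 CPM in the other Control libraries. Foxo3 in Control 3 was at 79.2 CPM, against 28.4 to 39.6 CPM. The log2 ratio of Nr5a2 to Nr5a1 in Control 1 was -1.55, where the rest of that group in batch 1 had -0.39 to 0.24. The log2 ratio of Gata4 to Gata6 in Tyrphostin 6 was 7.35, against 3.09 to 4.22 in the other Tyrphostin libraries.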

How the results depend on the processing

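Over 11 alternatives and 17 omissions of a library, Nr5a2 (2.17 to 2.35 on the log2 scale over the alternatives, 2.07 to 2.24 over the omissions) and Foxo1 (1.25 to 2.16, 1.14 to 1.45) were called higher. Gata4 (2.01 to 3.13, 2.09 to 2.59) was lost only with Control libraries summed by set, and Foxo3 (0.75 to 1.17, 0.97 to 1.15) only in the fit with the replicate block. From 3 to 4 members were called higher over the alternatives and 4 over the omissions. The genes called in all numbered 1018, 708 (without Tyrphostin 1) to 1314 (without Control 7) over the omissions, 619 without the batch term and 1313 with DESeq2. Total-count scaling gave 715 higher and 396 lower (64.4% higher, against 41.1% with TMM). It turned the sign of Nr5a1 to 0.0225 between treatments and to 0.17 between batches.

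Same-numbered libraries of both groups correlated by 0.031 to 0.32 in their deviations, over 0.1 in 2 of 6 numbers. Of the 6, 2 correlated best with their own number. Numbers 4 to 6 join Control libraries of batch 1 to Tyrphostin libraries of batch 2, so this does not settle pairing. Whether Control sets pair with Tyrphostin libraries was not tested. The fit with the replicate block uses Control 1 to 6 and Tyrphostin 1 to 6, and so no Control library of batch 2. It called 624 genes, and the same 12 libraries with no block, an alternative chosen after seeing the data, called 601. In both fits batch 2 holds Tyrphostin libraries alone, so the change rests on libraries of batch 1. Foxo3 had 0.75 (edgeR adjusted p = 0.115) with the block and 0.92 (edgeR adjusted p = 0.0347) with no block, Foxo1 2.16 and 1.76, Bcl6 -0.51 (edgeR adjusted p = 0.321) and -0.86, Nrip1 0.64 (edgeR adjusted p = 0.198) and 0.72. With no block Nr5a1 turned to 0.0015. With the block 1 gene listed as a target of NR5A, GATA and FOXL2 was lower and 1 FOXO target was called in each direction.

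Within batch 2, 61 genes were called, 222 with no filter and 303 with DESeq2; 2 members were then higher in each. Omissions gave 11 (without Tyrphostin 6) to 221 genes (without Control 7) and 1 to 2 members. Within batch 1 they gave 394 (without Tyrphostin 2) to 687, against 634. The interaction called 0 genes with edgeR (342 at an unadjusted p under 0.05) and 0 with DESeq2 (413), but 79 with no filter, among them 1 member, lower, Gata4. Between batches in Control they gave 660 (without Control 3) to 1063, against 1004. The ratio of Gata4 to Gata6 ran from 0.96 (without Tyrphostin 6) to 1.93. Uncalled values changed sign on omissions: Nr5a1 -0.16 to 0.19 and Nr2f2 -0.22 to 0.43 in batch 1; Gata6 -0.16 to 0.57 in batch 2; Nr5a2 -0.35 to 0.0186, Foxo3 -0.0807 to 0.41 and Nr2f2 -0.0101 to 0.73 in the interaction; Nr5a1 -0.0708 to 0.0996, Nr5a2 -0.0177 to 0.24 and Nr2f2 -0.0466 to 0.56 between batches. The cause was not tested. Foxl2, Wt1 and Nr0b1 had 5 counts or fewer in most libraries, close to the floor of 3.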
